A study of Rattus norvegicus with 6 samples.

Results

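Wnt and planar cell polarity genes were followed in pancreatic islets, which hold the hormone-secreting cells of the pancreas, from Sprague-Dawley rats. The members are the genes whose symbol in the count files belongs to the Wnt ligands, the frizzled, Lrp, Ror and Ryk receptors, the secreted antagonists, the core cytoplasmic relay, the TCF and LEF factors or the core planar polarity families. This gave 57 of 17055 gene rows, of which 52 had a count in at least 1 library. The P10 libraries came from 10-day-old rats of a sex that is not given, and the adult libraries from males aged 3 months. All are labelled as control animals with no treatment named, and each group has 3 libraries labelled biological replicates (numbered 1, 3 and 4 at P10). The labels do not say whether a replicate pools animals, so the p-values measure the spread between these libraries.

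Wnt proteins are secreted lipid-modified ligands that bind frizzled receptors. With an Lrp5 or Lrp6 co-receptor, binding stops the destruction complex of Axin, Apc and kinases from degrading beta-catenin, which then works with TCF and LEF factors in the nucleus. Other Wnt signals run without beta-catenin, through Ror and Ryk receptors or through the Vangl, Celsr and Prickle proteins that orient cells within a tissue plane. In the pancreas the pathway is known for roles in organ growth and in the postnatal maturation of beta cells.

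Adult islets had higher mRNA levels of 4 members than P10 islets, the ligands Wnt3 and Wnt4, the destruction complex gene Apc and the planar polarity cadherin gene Celsr3. Levels were lower for 10 members, the ligands Wnt5b and Wnt7a, the receptors Fzd1, Fzd2, Lrp5 and Ror2, the genes Wif1 and Dkk3 of antagonist families, the transcription factor gene Tcf7l1 and the polarity gene Prickle3. A member counted as higher or lower when edgeR's quasi-likelihood test gave a false discovery rate (FDR) under 0.05 over all 10124 genes tested. Of these genes 12.5% were higher and 13.8% lower, beside 4 and 10 of the 37 members with enough counts to test. The other 23 tested members did not pass, and 20 members had too few counts. A bulk library cannot tell fewer cells of a type from less RNA per cell, and this holds for every result here.

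The median log2 fold change, adult over P10, was -0.45 over the 37 tested members and -0.03 over all tested genes. The filter on low counts affects that median and the number of falls. Of the 37 tested members, 6 had no adult library above the filter's cutoff, namely Fzd2, Lef1, Tcf7l1, Wnt5b, Wnt7a and Wnt9a, and 4 of them are among the 10 falls. Over all 10124 tested genes 358 had no adult library above that cutoff, and 222 of these are among the 1394 falls. No tested member passed the filter through the adult libraries alone, against 18 of all tested genes. The normalised values of the groups did not overlap for 16 of the 37 tested members with adults below (22.3% of all tested genes) and for 4 with adults above (20% of all tested genes), against 42.3% of all tested genes in either direction. Falls of at least 2-fold were called for 8 of the 37 members (9.01% of all tested genes), falls of at least 4-fold for 6 (4.25%) and rises of at least 2-fold for 3 (4.28%).

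**Figure D1:**
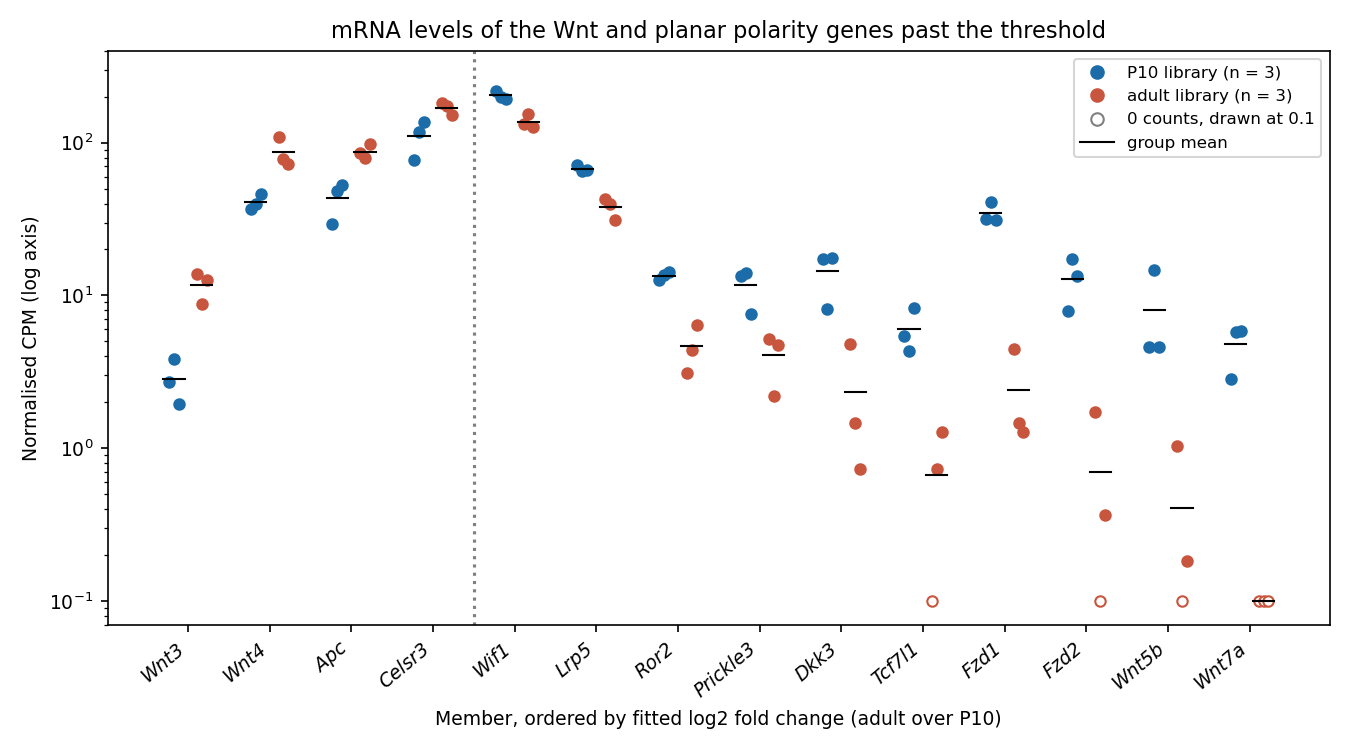
Normalised CPM (counts scaled to equal library size, log axis) of the 14 members past the threshold in each library, blue for P10 and red for adult, with a line at each group's mean (n = 3) and open circles for libraries without a count. The groups do not overlap for any of the 14, which were selected by the test on these same libraries (no overlap for 42.3% of all tested genes). Wnt7a has no count in any adult library.

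Gene counts per library ran from 3307415 to 6477825, and levels are given as CPM after scaling by the TMM method (trimmed mean of M values), for which 3 counts in a library equalled between 0.407 and 1.0995 CPM. Levels are not corrected for gene length, so different genes are not ranked. Raw counts given for low genes are not scaled for depth. In P10 replicates 1, 3 and 4 a count of 3 equalled 0.407, 0.446 and 0.728 CPM. For adult replicates 1, 2 and 3 it equalled 1.04, 1.10 and 0.551 CPM. The insulin genes took 31.4% ± 2.71 of the counts at P10 and 48.7% ± 3.11 in adults (SD, n = 3; exact two-sided permutation p = 0.1, the smallest that 3 against 3 libraries allow). With library totals in place of TMM factors the median of all genes shifted by -0.49 on the log2 scale, and 2 members were higher and 20 lower (3.39% and 35.7% of all genes), so that changes are relative to the bulk of the genes. Islet markers identified the tissue, with 9 beta-cell markers summing to between 228013 and 297321 CPM at P10 and between 538971 and 672146 in adults. Markers of several other cell types were lower in adults, beside 13.8% of all tested genes. The summed fibroblast markers lay between 3522 and 4408 CPM at P10 and between 761 and 1014 in adults, with 10 of 12 tested markers lower. Duct markers went from between 1904 and 2058 to between 437 and 661 CPM (7 of 8 lower), and pericyte and smooth muscle markers from between 239 and 301 to between 34.2 and 49.9 CPM (5 of 6 lower). The ranges of endothelial markers were 172 to 256 and 111 to 163 CPM (3 of 11 lower), and those of neural crest and Schwann markers 40.3 to 80.2 and 13.0 to 28.2 CPM (2 of 3 lower). Leukocyte markers overlapped, at 106 to 241 and 92.0 to 145 CPM, with 1 of 7 lower. Of the lists' genes Col1a2 and Mfap4 (fibroblast) and Pcsk1n (endocrine) had no count at either age, and Cdh19 (Schwann) none in adults. Col1a1 stood at 1737 CPM at P10 (mean), so a row without a count in any library is not read here as absence of expression. The part of these cell types in the results below was not tested.

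Among the 18 ligand rows, 15 had a count and 6 could be tested. Wnt4, a ligand used in kidney and gonad development and also found in islet endocrine cells, had 37.0, 39.7 and 45.9 CPM in P10 replicates 1, 3 and 4. In adult replicates 1, 2 and 3 it had 108, 78.4 and 72.5 CPM, so every adult library lay above every P10 library. It rose 2.11-fold (log2 fold change 1.08 ± 0.18, SE; edgeR FDR = 0.00042) and passed the threshold in each of the 14 alternative analyses. Wnt3, a ligand of the beta-catenin branch, had 2.71, 3.86 and 1.94 CPM at P10 against 13.8, 8.80 and 12.7 in adults. The lowest adult library was above the highest P10 library, and the level rose 4.07-fold (log2 fold change 2.02 ± 0.47, SE; FDR = 0.00455).

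Of the other tested ligands, Wnt5b, which mostly acts without beta-catenin, had 34, 99 and 19 counts in the P10 libraries and 3, 0 and 1 in the adult libraries. P10 replicate 3 was the highest by far. The ratio of normalised counts, P10 over adult, was 23.1 with a 95% counting interval of 8.83 to 85.8 (edgeR FDR = 0.00224), 68.2 (12.1 to 2711) without adult replicate 1 and 12.8 (4.70 to 48.5) without P10 replicate 3. The Wnt5b locus overlaps Fbxl14 in the RefSeq annotation, and these libraries do not keep the strand, so their reads may be mixed. Fbxl14 had a log2 fold change of -0.63 and did not pass (FDR = 0.0504).

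Wnt7a, a ligand active in epithelia and neurons, had 21, 39 and 24 counts at P10 and none in the 3 adult libraries. It was thus at least 17.0-fold lower in adults, set against 3 counts over the adult group (edgeR FDR = 0.00123), and at least 8.64-fold lower without adult replicate 3, the deepest adult library. Wnt5a, the main ligand of the Ror2 branch, had 7.19, 6.54 and 5.83 CPM at P10 and 2.07, 2.93 and 1.65 in adults. The groups did not overlap, but the difference did not pass (log2 fold change -1.58 ± 0.57, SE; FDR = 0.0519). It did pass with DESeq2, with a stricter filter and with library totals, and the FDR over the alternatives ran from 0.00883 to 0.217. Wnt9a had 5.02, 2.67 and 1.94 CPM at P10 and 1.04, 0.73 and 0.55 in adults, also without overlap, and did not pass (FDR = 0.0681).

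The promoters of ligands that moved in opposite directions are shown side by side. The lines give the 60 bases before the RefSeq start in GRCr8, 5′ to 3′ on the gene's strand, with each CG dinucleotide in capitals, for Wnt4 (chr5:154797390-154797449, plus strand), Wnt3 (chr10:89180164-89180223, plus strand) and Wnt7a (chr4:125466150-125466209, minus strand).
Wnt4: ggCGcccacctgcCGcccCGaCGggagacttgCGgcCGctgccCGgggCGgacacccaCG
Wnt3: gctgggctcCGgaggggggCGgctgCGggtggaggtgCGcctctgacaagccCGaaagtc
Wnt7a: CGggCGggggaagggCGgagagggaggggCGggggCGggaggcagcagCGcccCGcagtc
All of these windows are rich in G and C, at 81.7%, 73.3% and 83.3%, and they hold 9, 5 and 7 CG dinucleotides. Over the 41 members with an entry in the promoter table, the median share of G and C in the 300 bases around the start was 65.7%, against 51.7% over all 33469 promoters.

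The remaining ligands had few counts or none and were not tested. Wnt7b had 19, 11 and 8 counts at P10 and 0, 0 and 8 in adults, and Wnt9b had 1, 3 and 1 against 1, 2 and 20. Wnt2b had 9 counts, all in P10 replicate 4, and Wnt10b had 9 at P10 and none in adults. Wnt11 had 8 and 3 counts in the groups, Wnt1 had 3 and none, Wnt10a and Wnt16 had 2 and none each, and Wnt8b had none and 1. Wnt3a, Wnt6 and Wnt8a had no count in any library, which does not show that they are not expressed. In an analysis with no filter none of these untested ligands passed, with FDRs from 0.259 to 0.874.

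The ligand reads of a library were therefore spread over more genes at P10. Wnt4 took 59.6%, 51.3% and 62.8% of them in the P10 libraries and 85.3%, 84.6% and 78.2% in the adult libraries. Wnt3 took 4.01% ± 1.21 at P10 and 11.3% ± 2.12 in adults, and Wnt5a 9.34% ± 1.95 and 2.19% ± 0.84 (SD, n = 3). For each of the 3 genes the groups were apart (exact two-sided permutation p = 0.1, the smallest possible). Summed over all ligands the level was 70.8 ± 7.82 CPM at P10 and 104 ± 19.7 in adults (SD, n = 3; exact p = 0.1), but with library totals the means were 84.4 and 88.2 CPM and the groups overlapped.

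**Figure D2:**
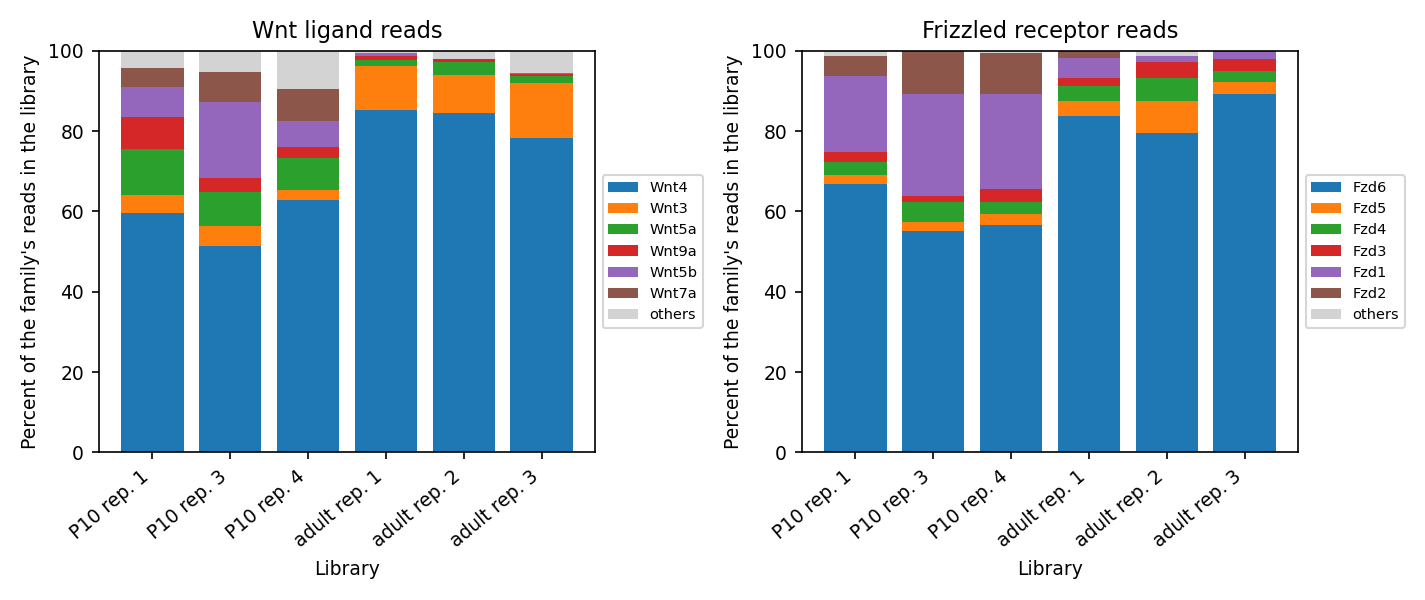
Percent of all Wnt ligand reads (left) and all frizzled receptor reads (right) taken by each gene in each library, with genes too low to test pooled as others. Wnt4 took between 51.3% and 62.8% of ligand reads at P10 and between 78.2% and 85.3% in adults, and Fzd6 between 55.1% and 66.9% and between 79.5% and 89.2% of frizzled reads.

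Frizzled receptors are the seven-pass membrane proteins that bind Wnt ligands. Of the 9 rows of the family 6 could be tested. Fzd1 had 31.5, 40.9 and 31.1 CPM in the P10 libraries against 4.50, 1.47 and 1.29 in the adult libraries. No adult library came near a P10 library, and the level fell 15.1-fold (log2 fold change -3.92 ± 0.39, SE; edgeR FDR = 3.13e-06), or 25.0-fold without adult replicate 1. Fzd2 had 7.87, 17.2 and 13.4 CPM at P10 and 1.73, 0 and 0.37 in adults, a fall of 18.9-fold (FDR = 0.000414). Without adult replicate 1, which held 5 of the 7 adult counts, the ratio was 51.4 with a 95% counting interval of 14.1 to 427. Among the P10 libraries Fzd2 and the summed fibroblast markers were both lowest in replicate 1 and highest in replicate 3. Fzd1 was also highest in replicate 3 but lowest in replicate 4. The relation of either gene to these markers was not tested.

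The other frizzled genes did not pass. Fzd6 had 110.0, 89.0 and 74.3 CPM at P10 and 78.2, 72.6 and 75.5 in adults, with overlapping groups (log2 fold change -0.28 ± 0.16, SE; FDR = 0.227). Only under library totals did it pass (log2 fold change -0.77, FDR = 0.00231). Fzd3, Fzd4 and Fzd5 had group means between 2.77 and 5.78 CPM at both ages (FDR from 0.398 to 0.793). Fzd9 had 21 counts at P10, 17 of them in replicate 1, and 3 in adults. Fzd8 and the pseudogene row Fzd10-ps1 had no count, which does not show absence of expression. Together the frizzled genes went from 152 ± 18.5 to 89.8 ± 4.55 CPM (SD, n = 3; exact two-sided permutation p = 0.1), with no overlap of the groups under any of the 4 scalings tried. The Fzd6 share of these reads was 59.5% ± 6.38 at P10 and 84.1% ± 4.83 in adults (exact p = 0.1), while that of Fzd1 was 22.7% ± 3.20 and 2.65% ± 1.88 (exact p = 0.1).

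Lrp5 and Lrp6 are the co-receptors of the beta-catenin branch. Lrp5 had 71.1, 65.7 and 66.0 CPM at P10 and 42.9, 39.6 and 31.4 in adults, a fall of 1.79-fold with no overlap (log2 fold change -0.84 ± 0.17, SE; edgeR FDR = 0.00205). Lrp6 had 21.0, 27.0 and 35.9 CPM at P10 and 33.9, 35.9 and 31.9 in adults, with overlap, and did not pass (0.28 ± 0.22, SE; FDR = 0.382). The difference between these fold changes was not tested. Ror2, the tyrosine kinase-like receptor for Wnt5a, had 12.6, 13.5 and 14.3 CPM at P10 and 3.11, 4.40 and 6.43 in adults and fell 2.81-fold (FDR = 0.0115). Its relative Ror1 (3.14 ± 0.718 and 3.71 ± 0.424 CPM) and the receptor Ryk (41.4 ± 11.0 and 33.0 ± 3.51 CPM; SD, n = 3) did not pass (edgeR FDR = 0.826 and 0.305).

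Secreted antagonists act outside the cell, on Wnt ligands or on their receptors. Wif1, which binds the ligands, had 218, 200.0 and 194 CPM at P10 and 132, 153 and 127 in adults, a fall of 1.49-fold without overlap (log2 fold change -0.57 ± 0.13, SE; edgeR FDR = 0.00378). Dkk3, a divergent member of the Dickkopf family, had 17.4, 8.17 and 17.7 CPM at P10 and 4.84, 1.47 and 0.73 in adults. It fell 6.54-fold (FDR = 0.00316), or 13.8-fold without adult replicate 1, the highest adult library. Sfrp5, a soluble frizzled-like decoy, had 58.6, 45.0 and 64.8 CPM at P10 and 103, 82.5 and 34.3 in adults. Adult replicate 3 lay below all P10 libraries and the other adults above them, so the groups overlapped and the gene did not pass (FDR = 0.378). Without adult replicate 3 it did (log2 fold change 0.73, FDR = 0.0151). That library also had the highest sum of acinar enzyme genes among adults, 3679 CPM against 922 and 1068, and whether the 2 are linked was not tested.

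Dkk2, which binds the Lrp co-receptors, had 89, 7 and 26 counts at P10 and none in adults. The main filter left it out because P10 replicate 3 had so few, and with no filter it passed (edgeR FDR = 2.12e-05). It was at least 24.7-fold lower in adults, set against 3 counts over the group. That bound was 11.2 without P10 replicate 1, 36.9 without P10 replicate 3 and 12.5 without adult replicate 3. Dkk4 (30 and 16 counts, or 1.61 and 1.32 CPM), Sfrp4 (24 and 5 counts), Sfrp2 (8 and 1) and Dkk1 (2 and 3) were too low to test. In all, the antagonists summed to between 259 and 309 CPM at P10 and between 165 and 241 in adults (exact two-sided permutation p = 0.1).

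Of the 7 genes of the cytoplasmic relay and destruction complex, 1 rose, none fell and 6 did not pass. Among all tested genes 12.5% rose and 13.8% fell. Apc, the scaffold on which beta-catenin is marked for degradation, had 29.2, 48.6 and 53.2 CPM at P10 and 85.1, 79.5 and 97.7 in adults. It rose 2.02-fold without overlap (log2 fold change 1.02 ± 0.20, SE; edgeR FDR = 0.0017), but did not pass with library totals (0.52, FDR = 0.0745). Ctnnb1, which encodes beta-catenin, was at 326 ± 14.8 CPM at P10 and 325 ± 22.9 in adults (SD, n = 3; log2 fold change -0.0015 ± 0.12, SE; FDR = 0.993). It passed as lower only with library totals (-0.50, FDR = 0.0110). The scaffold gene Axin1 was at 54.8 ± 3.99 and 57.2 ± 4.00 CPM and Dvl1, which relays the signal from frizzled, at 75.0 ± 8.20 and 77.1 ± 6.70 CPM (SD, n = 3). These genes and Dvl2 and Dvl3 did not pass (FDR from 0.270 to 0.855).

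Axin2, a feedback inhibitor that beta-catenin itself induces and a common readout of the pathway, had 3.80, 9.21 and 9.22 CPM at P10 and 4.15, 0.73 and 3.67 in adults. P10 replicate 1 lay among the adult libraries, and the difference did not pass (log2 fold change -1.32 ± 0.62, SE; edgeR FDR = 0.132). It did pass without P10 replicate 1 (-1.63, FDR = 0.0493) and with library totals (FDR = 0.0305).

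Of the 3 TCF and LEF genes, 1 passed the test (26.3% of all tested genes in either direction). Every adult library lay below every P10 library for each of the 3, as for 22.3% of all tested genes, but Lef1 and Tcf7l1 passed the filter on low counts through the P10 libraries alone. Tcf7l1, mostly a repressor in the absence of beta-catenin, had 5.42, 4.31 and 8.25 CPM at P10 and 0, 0.73 and 1.29 in adults. It fell 7.67-fold (log2 fold change -2.94 ± 0.79, SE; edgeR FDR = 0.0124), but did not pass once P10 replicate 4 or one of adult replicates 1 and 2 was removed (FDR = 0.0785, 0.0504 and 0.0519). Without adult replicate 3, which held 7 of the 9 adult counts, the ratio was 15.9 with a 95% counting interval of 4.29 to 133. Lef1, an activator with beta-catenin and itself a target, had 5.29, 4.31 and 2.91 CPM at P10 and 0.69, 0.37 and 1.84 in adults (FDR = 0.0655, and 0.0475 without adult replicate 3). Tcf7l2, the TCF gene linked to type 2 diabetes risk in people, had 4.48, 5.65 and 4.37 CPM at P10 and 2.77, 2.93 and 1.65 in adults (FDR = 0.242).

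**Figure D3:**
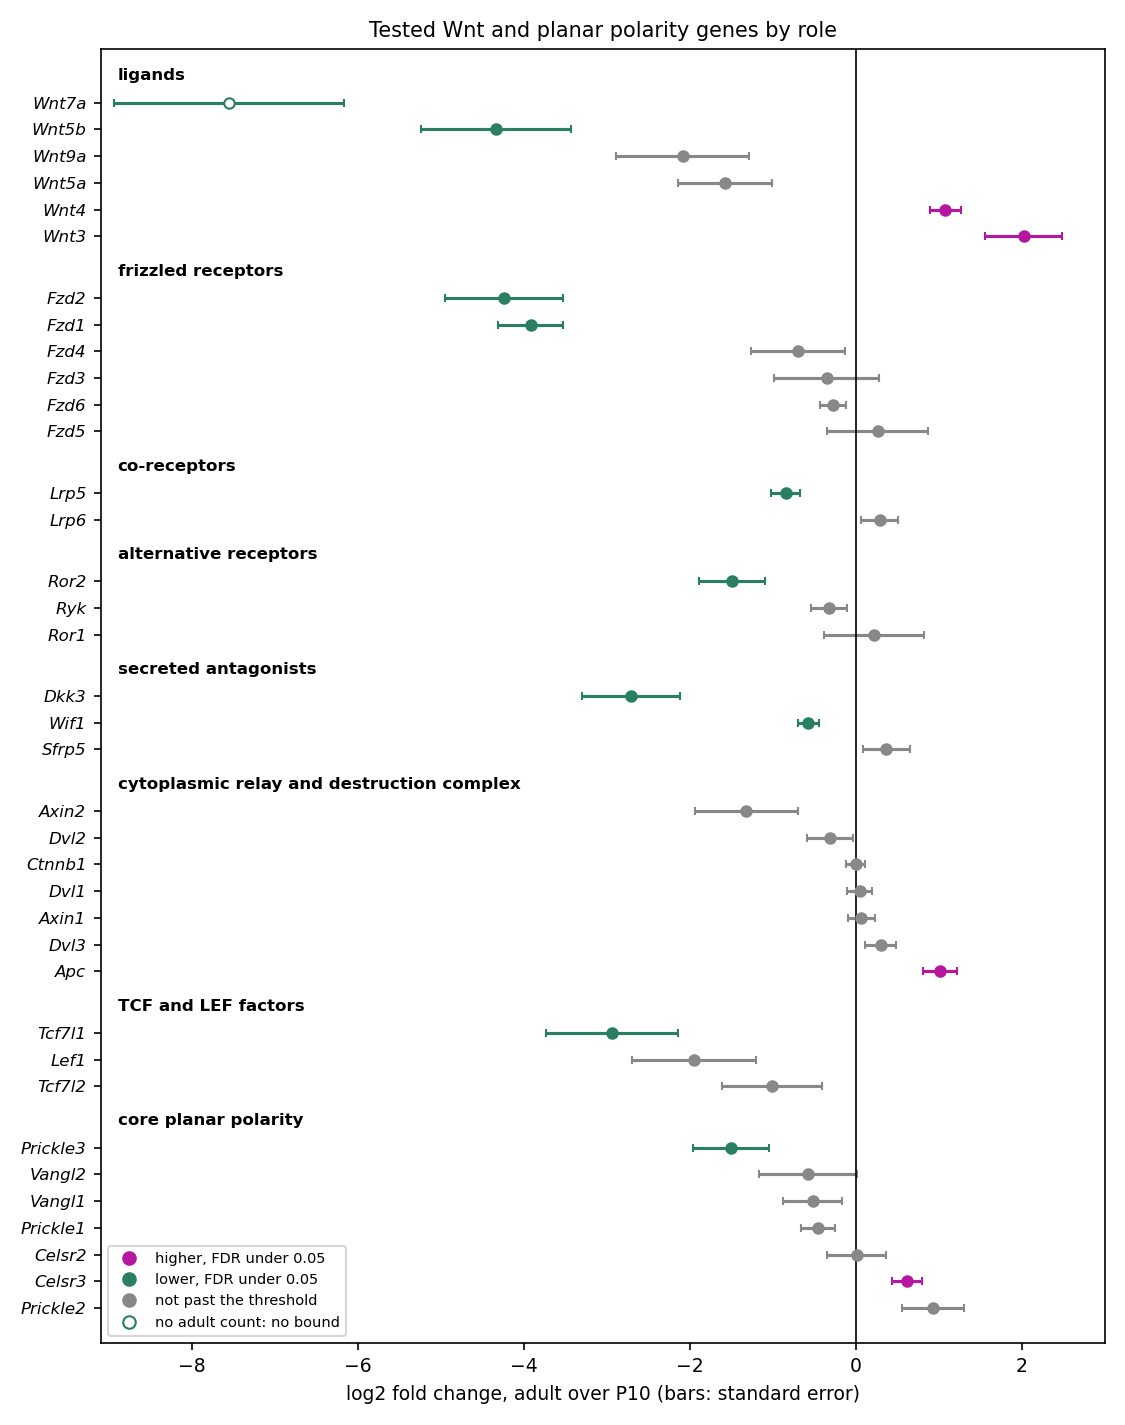
Log2 fold change, adult over P10, with its standard error (bars) for the 37 tested members, grouped by role; purple and green points passed an FDR of 0.05 as higher and lower, and grey points did not pass. The 10 falls lie between -7.56 (Wnt7a, no adult count, so the fitted value is no bound) and -0.57 (Wif1), and the 4 rises between 0.61 (Celsr3) and 2.02 (Wnt3).

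Of the 7 core planar polarity genes, 1 rose, 1 fell and 5 did not pass, beside 12.5% higher and 13.8% lower of all tested genes. Celsr3, an atypical cadherin best known from axon tracts and also studied in islets, had 77.4, 118 and 136 CPM at P10 and 182, 174 and 151 in adults. It rose 1.53-fold (log2 fold change 0.61 ± 0.18, SE; edgeR FDR = 0.0177), a call lost without adult replicate 1 or 2 (FDR = 0.0778 and 0.0639) and with library totals (0.11, FDR = 0.667). Its locus overlaps Slc26a6 in the RefSeq annotation, which was at 8.23 ± 2.05 and 9.51 ± 3.47 CPM (SD, n = 3). Celsr2 was at 16.1 ± 2.91 and 16.5 ± 8.33 CPM (SD, n = 3), with an FDR of 0.988.

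Prickle3 had 13.4, 14.1 and 7.53 CPM at P10 and 5.19, 2.20 and 4.77 in adults and fell 2.85-fold (edgeR FDR = 0.0227), which was lost without P10 replicate 3 or adult replicate 2 (FDR = 0.101 and 0.0835). The locus overlaps Plp2, whose log2 fold change was -0.45 (FDR = 0.0809). Prickle2, in contrast, had 6.65, 7.58 and 10.4 CPM at P10 and 19.4, 18.7 and 9.18 in adults, where adult replicate 3 lay within the P10 range. It did not pass (log2 fold change 0.93 ± 0.38, SE; FDR = 0.0830) except without that library (1.23, FDR = 0.0245). Prickle1 (35.7 ± 5.43 and 26.1 ± 1.52 CPM), Vangl1 (12.0 ± 2.68 and 8.35 ± 0.980 CPM) and Vangl2 (4.59 ± 1.76 and 3.06 ± 0.464 CPM; SD, n = 3) did not pass (FDR from 0.114 to 0.522).

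Genes of the pathway outside these families were taken from 8 lists, 113 genes with a row that are no members. Of the 93 tested, 17 were higher and 18 lower (with 12.5% and 13.8% of all genes), at a median log2 fold change of -0.01. With library totals 2 were higher and 38 lower. Of the falls named below, Cthrc1, Gpc3, Hic1, Mcc, Mmp7 and Nkd1 had no adult library above the filter's cutoff. The filter thus affects the number of falls, which does not support a fall of the lists. Of the rises given with a fold below, only Ccnd1 (edgeR FDR = 0.00349) and Frzb (FDR = 0.00191) passed with library totals, and Fbxw11 (0.124), Tle3 (0.589), Crebbp (0.589), Rnf43 (0.0804), Gpc4 (0.82), Lgr4 (0.483), Mapk10 (0.0742), Prkca (0.217) and Plcb1 (0.468) did not. Leaving out single libraries gave between 8 and 14 higher and between 13 and 18 lower, with 14 higher without P10 replicate 4, 11 without P10 replicate 1 or adult replicate 3, 10 without adult replicate 1, 9 without P10 replicate 3 and 8 without adult replicate 2.

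The list of beta-catenin transcription targets had 16 tested genes, including the members Axin2 and Lef1, of which 7 fell and 3 rose (13.8% and 12.5% of all tested genes). The median log2 fold change was -1.15 against -0.03 for all tested genes. Of the 16, Birc5, Lef1, Mmp7, Nkd1 and Wisp1 passed the filter on low counts through the P10 libraries alone, and 3 of these 5 are among the 7 falls, so neither the count nor the median supports a fall of the list. Cyr61, a matrix-associated growth regulator, fell 4.56-fold, from 80.2 ± 15.0 to 17.2 ± 5.22 CPM (SD, n = 3; edgeR FDR = 4.45e-06). Nkd1, a feedback inhibitor that binds Dishevelled, had 184 counts at P10 and 4 in adults, a ratio of 27.9 with a 95% counting interval of 10.7 to 104. Adult replicate 1 held all 4. Setting it aside made Nkd1 at least 27.5-fold lower in adults, and setting adult replicate 3 aside gave a ratio of 14.2 (5.45 to 52.6). Ccnd1, cyclin D1, rose 2.20-fold from 78.6 ± 13.7 to 173 ± 15.0 CPM (SD, n = 3; FDR = 5.00e-05). The list mixes genes of many cell types: Cyr61 is also a gene of fibroblasts, whose markers fell in the same libraries, and the part of these cells was not tested.

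**Figure D4:**
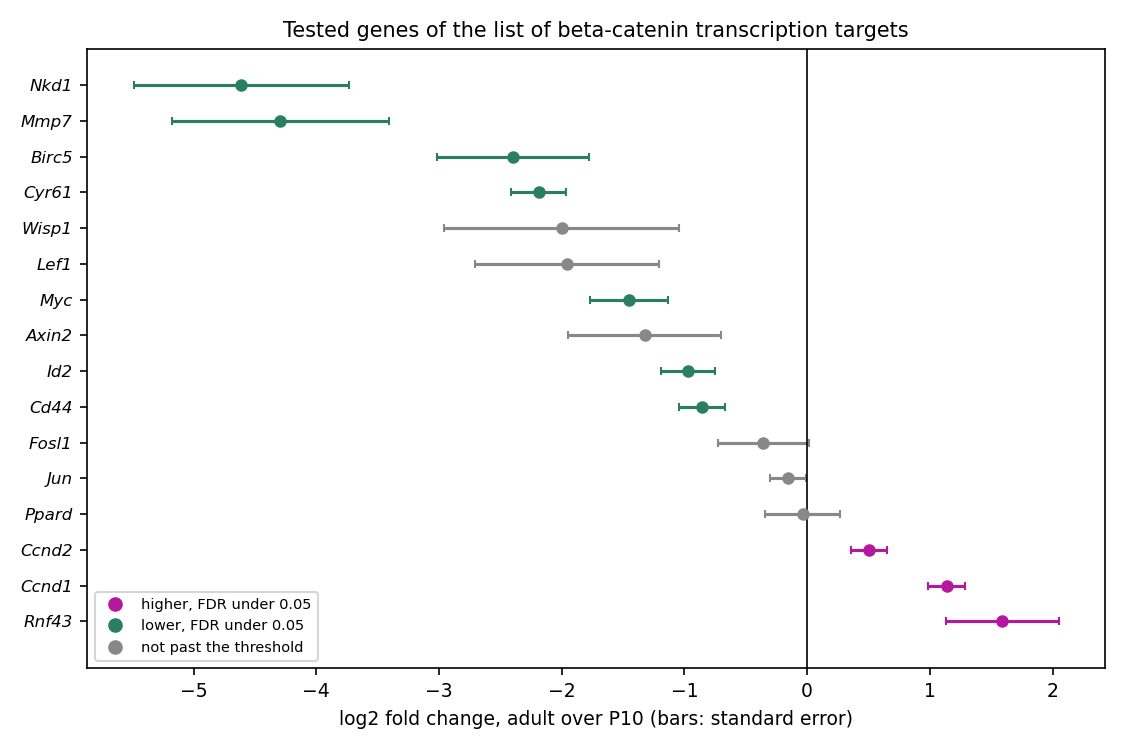
Log2 fold change, adult over P10, with its standard error (bars) for the 16 tested genes of the beta-catenin target list; green and purple points passed an FDR of 0.05 as lower and higher, and grey points did not pass. Nkd1 lies lowest at -4.61, and the 3 rises are Ccnd2, Ccnd1 and Rnf43.

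The binding sequence of TCF and LEF factors was searched for in the promoters of members and targets, as CTTTGAT on either strand within 250 bases before and 50 after the RefSeq start in GRCr8. It occurred in 3.63% of 33469 promoters, in 1 of 41 members with an entry and in 3 of 11 further targets with an entry. The member was Axin2 (chr10:94398627-94398686, plus strand), and the targets were Nkd1 (chr19:34722954-34723013, minus strand), Mmp7 (chr8:13132983-13133042, plus strand) and Sp5. The lines give 60 bases before the start around the match, on the gene's strand, with the match in capitals (in Mmp7 the match is on the other strand), for the 3 genes with enough counts to test.
Axin2: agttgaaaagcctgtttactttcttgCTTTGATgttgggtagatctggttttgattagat
Nkd1: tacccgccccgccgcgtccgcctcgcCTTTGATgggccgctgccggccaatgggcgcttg
Mmp7: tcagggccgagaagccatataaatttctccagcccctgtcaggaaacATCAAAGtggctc
The match begins 132, 141 and 13 bases before the start. Of these genes Nkd1 was lower in adults, as given above, Axin2 did not pass, and Mmp7, a matrix protease chosen here for its promoter after its values were seen, had 180 counts at P10 and 5 in adults (ratio 21.9, interval 9.20 to 68.1; edgeR FDR = 0.00202). Adult replicate 2 held all 5. Setting it aside made Mmp7 at least 27.5-fold lower, and setting adult replicate 3 aside gave a ratio of 11.1 (4.67 to 34.6). A match in this window is a run of letters and was not tested as a binding site.

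Modulators at the membrane moved in both directions. Rnf43, an enzyme that removes frizzled receptors from the surface and is itself a beta-catenin target, rose 3.01-fold from 3.33 ± 0.521 to 10.0 ± 0.866 CPM (SD, n = 3; edgeR FDR = 0.0174, and 0.0644 without adult replicate 2). Lgr4, a receptor for R-spondins that counters Rnf43, rose 1.67-fold, but did not pass when P10 replicate 1 or 3 or adult replicate 2 or 3 was removed (FDR from 0.0620 to 0.254). These were the 2 tested genes of the R-spondin list. The counts of the R-spondins themselves were 13 for Rspo1, 2 for Rspo2 and 1 for Rspo3 at P10 and none in adults. Frzb, a secreted frizzled-related antagonist, rose 2.81-fold from 17.5 ± 1.38 to 49.0 ± 7.02 CPM (SD, n = 3; FDR = 6.18e-05). In the same list of modulators Cthrc1, a secreted protein that binds Wnt and Ror2, had 458 counts at P10 and 2 in adults (ratio 139, 95% counting interval 38.3 to 1152; 70.6, 19.4 to 585, without adult replicate 3 and 210, 37.4 to 8295, without adult replicate 2). Mcc fell 4.43-fold, and did not pass when P10 replicate 3 or 4 or adult replicate 2 was removed (FDR from 0.0510 to 0.110). This list had 1 gene higher and 2 lower of 5 tested. For secretion and release of the ligands 1 of 6 rose and 1 fell. Of all tested genes 12.5% rose and 13.8% fell. The glypican Gpc4 rose 1.47-fold (lost without adult replicate 1 or 2, FDR = 0.0558 and 0.0595). The glypican Gpc3 fell 9.96-fold, and its ratio was 38.4 (10.5 to 319) without adult replicate 3. Wls, which carries Wnt proteins to the surface, was at 51.5 ± 3.71 and 52.5 ± 1.29 CPM and Porcn, which attaches their lipid, at 9.91 ± 1.64 and 9.74 ± 2.14 CPM (SD, n = 3), and neither passed (edgeR FDR = 0.917 and 0.999; both named after their values were seen).

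In the further relay list 3 of 20 rose and 3 fell, near the 12.5% and 13.8% of all tested genes. Nkd2, a relative of Nkd1, fell 10.9-fold from 30.0 ± 9.38 to 2.53 ± 1.31 CPM (SD, n = 3; edgeR FDR = 9.45e-06; 16.6-fold without adult replicate 3). Fbxw11, a ligase subunit that recognises beta-catenin marked for degradation, rose 2.05-fold (FDR = 0.00836). Of the nuclear cofactors 3 of 13 rose and 2 fell (12.5% and 13.8% of all tested genes). Among the rises were the co-repressor Tle3, 1.54-fold, and the acetyltransferase Crebbp, 1.54-fold (lost without P10 replicate 3, FDR = 0.0608). Hic1, a repressor, had 144 counts at P10 and 4 in adults (ratio 21.9, interval 8.36 to 81.3; 64.6, 11.4 to 2569, without adult replicate 1 and 11.1, 4.24 to 41.3, without adult replicate 3).

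Of the relay and effectors of planar polarity, 3 of 19 rose and 3 fell, near the 12.5% and 13.8% of all tested genes. Ptk7, a membrane pseudokinase of that branch, fell 5.04-fold from 96.2 ± 16.7 to 19.4 ± 3.22 CPM (SD, n = 3; edgeR FDR = 5.29e-07). Smurf1, a ligase that acts on Prickle, fell 1.76-fold (not past the threshold when P10 replicate 3 or 4 or adult replicate 3 was removed, FDR from 0.0503 to 0.0989). Mapk10, a Jun kinase, rose 2.84-fold (lost without adult replicate 1, FDR = 0.0634). In the calcium branch 2 of 16 rose and 1 fell (12.5% and 13.8% of all tested genes). Nfatc4, a calcium-regulated transcription factor, fell 4.89-fold. The kinase Prkca rose 2.27-fold, and the phospholipase Plcb1 1.73-fold. Both rises were lost when any 1 of 4 libraries was left out, P10 replicates 1 and 3 and adult replicates 1 and 3 for Prkca (FDR from 0.0695 to 0.235), and P10 replicates 1 and 4 and adult replicates 2 and 3 for Plcb1 (FDR from 0.0812 to 0.189).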

How the data were processed

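Oligo(dT)-selected RNA gave unstranded libraries read from 1 end, per the labels' protocols. The deposited values are raw read counts per gene symbol, which the authors made on the rn5 build. The submitters' processing notes name HTSeq, TopHat2 2.0.10 and Bowtie2. The 5 rows that name no gene were left out, of which alignments that were not unique came to between 15.1% and 27.7% of each file's sum and ambiguous reads to between 0.319% and 0.474%.

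A gene was tested when filterByExpr in edgeR 4.0.16 (R 4.3.3) kept it with its minimum count of 10, a cutoff of 2.25 CPM here. Library sizes were scaled by TMM factors, and the quasi-likelihood fit used all 6 libraries, with age as its single term. FDRs are Benjamini-Hochberg values over 10124 genes. A standard error is the absolute log2 fold change over the square root of the F statistic. Where 1 group had no count, 3 counts over the group stood in its place. With 1 to 5 counts in a group, the ratio has an exact 95% counting interval, for counting error only. Alternatives were other scalings, DESeq2 1.42.0, other filters, a replicate block, a 1.5-fold test and leaving out each library.

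Every member with a count may be named, and of each further list the 2 smallest p in the main direction and the smallest in the other. Where directions tied, the one with the smallest p was taken as main. Members and lists were chosen with earlier results of these data known. Promoter sequences come from RefSeq (GRCr8). Of the 57 members 41 had an entry. Overlapping genes were taken from RefSeq by name only. Among the members that passed, Apc, Wif1 and Tcf7l1 also overlap non-coding RNA genes and Lrp5 a pseudogene, so their reads may be mixed too. Several members that did not pass, Lef1 among them, have overlaps as well.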

Additional observations from a re-analysis of the deposited data

How the results depend on the processing

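Over the 37 tested members, 444 of the values under the 14 alternatives kept their direction and side of the threshold, 21 lost a call, 16 gained one and 26 changed sign. Wnt4, Fzd1, Fzd2 and Dkk3 passed in every alternative run. With library totals 343 genes were higher and 3612 lower, against 1265 and 1394, so that 8.67% of calls were rises against 47.6%. Members were then 2 and 20, further pathway genes 2 and 38 (main 17 and 18). Against a 1.5-fold change 337 genes were higher and 624 lower, members 2 and 6, further pathway genes 2 and 11. Both groups have a replicate 1 and a replicate 3, but same-numbered libraries did not deviate together (r = -0.02 and -0.0049). The labels do not say whether they share more than a number, and correlations of 2 pairs cannot decide it. With the replicate block 679 genes were higher and 729 lower, members 3 and 5, further pathway genes 5 and 10. Under the block a library whose number occurs in 1 group only does not inform the age difference. That difference then rests on replicates 1 and 3 of each group, so a lost call can come from fewer libraries. The members that lost their call with the block were Wnt3 (FDR = 0.0729), Wnt5b (0.0569), Wnt7a (0.054), Ror2 (0.123), Prickle3 (0.14) and Tcf7l1 (0.18). Leaving out single libraries gave 8 to 14 further pathway genes higher. Signs turned, all in members that did not pass, with library totals for Axin1 (-0.43), Celsr2 (-0.50), Dvl1 (-0.45), Dvl3 (-0.20), Fzd5 (-0.25), Lrp6 (-0.21), Ror1 (-0.28) and Sfrp5 (-0.12), with the block for Celsr2 (-0.31), Fzd5 (-0.28) and Ctnnb1 (0.0302), and with the stricter filter for Celsr2 (-0.0128). Ctnnb1 was at 0.0087 with relative log expression factors, 0.0079 without hormone and acinar genes in the factors, 0.01 with DESeq2 and 0.0063 with no filter. Without single libraries Celsr2 ran from -0.41 to 0.37, Ctnnb1 from -0.0563 to 0.0416, Dvl1 from -0.0178 to 0.1328 and Fzd5 from -0.2722 to 0.5729. The cause of these shifts was not tested. At these depths members that did not reach 2.25 CPM in enough libraries were not tested in the main fit. These included Dkk4, Wnt7b and Dkk2, with means over all libraries of 1.47, 1.27 and 3.24 CPM.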

Other observations

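Wnt3 and Wnt9b lie next to each other on rat chromosome 10, on opposite strands with 23159 bases between their starts in GRCr8. Wnt3 rose in adults in every library, whereas 20 of the 23 adult counts of Wnt9b lay in adult replicate 3. At P10 Wnt9b had 5 counts. It did not pass in the analysis with no filter (edgeR FDR = 0.322). Wnt3a and Wnt9a, also neighbours on chromosome 10, had no count and 63 counts at P10 and none and 8 in adults.

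Some members varied widely between the P10 libraries. The share of Wnt5b in the ligand reads was 19.0% in P10 replicate 3 against 7.42% and 6.31% in replicates 1 and 4. In the same P10 replicate 3 Dkk2 had 0.40% of the antagonist reads, against 3.91% and 2.21%. Most marker sums were also at an extreme of the P10 range in that library. Lowest were those of leukocytes (106 CPM against 241 and 136), endothelium (172 against 256 and 205), beta cells and all endocrine cells. Highest were those of acinar cells (3604 CPM against 2564 and 2518) and fibroblasts (4408 against 3522 and 4011). The sums for pericytes and smooth muscle, neural crest and Schwann cells, and alpha cells were highest there too, and only duct markers lay between. Any relation of these sums to Wnt5b or Dkk2 was not tested.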
